A study of Mus musculus with 36 samples.

Results

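The mitochondrial breakdown of branched-chain amino acids, with the propionate and ketone steps that adjoin it, was followed in mouse skeletal muscle lacking estrogen-related receptors. The set comprised 31 genes listed by their place in the pathway, and all 31 had a row with values in the deposited table. Of these, 30 passed a filter on low signal and were tested among 13404 genes kept of 17873 with a value, and only Bcat1 did not. The measurement was RNA-seq of 2 hindlimb muscles, the extensor digitorum longus (EDL), a fast muscle, and the soleus, a slow and oxidative one. Each muscle was taken from 3 classes of muscle-specific knockout, ERRalpha mKO, ERRbeta/ERRgamma dmKO and ERRalpha/ERRgamma dmKO, and each class was set against its own WT littermates, with 3 libraries in each of 12 groups. All animals were males of 1 year on a C57BL/6JBom background, kept at about 22 °C on standard chow. The floxed receptor genes were deleted by Cre under the human alpha-skeletal actin promoter, which is known for its activity in muscle fibres, and in which cells of these muscles the genes were deleted was not tested. The WT columns of the table are marked "FX-", read here as floxed without Cre, while the sample labels say only WT.

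The breakdown of leucine, isoleucine and valine starts mainly outside the liver, and skeletal muscle holds much of the aminotransferase that opens it. Each amino acid is transaminated to a keto acid, which the branched-chain keto acid dehydrogenase (BCKDH) complex decarboxylates irreversibly under the control of a kinase that inactivates it and a phosphatase that reactivates it. The leucine arm then ends in acetyl-CoA and acetoacetate, the valine arm in propionyl-CoA, and the isoleucine arm in both acetyl-CoA and propionyl-CoA, which biotin- and cobalamin-dependent enzymes turn into succinyl-CoA. Muscle takes up ketone bodies and oxidises them through the last enzymes of the set. The estrogen-related receptors are orphan nuclear receptors known for activating genes of mitochondrial energy metabolism.

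Levels are given as the log2 of the authors' normalised signal, and changes as differences of log2 means, knockout minus WT, with the standard error (SE). A gene was called when its Benjamini-Hochberg adjusted p in limma, over all genes tested, was under 0.05. The libraries held values for 13689 to 14975 genes, and the table gives no counts, so the depth is unknown. In all 36 libraries the 8 markers of muscle fibres had values. In whole muscle, fewer cells of a type and less RNA per cell cannot be told apart. The signal of a whole receptor gene does not isolate its floxed part, and it fell in the labelled knockouts for Esrra of the ERRalpha/ERRgamma class alone. Esrra, the gene of ERRalpha, fell by 2.23 on the log2 scale in EDL ERRalpha/ERRgamma dmKO and by 0.57 in soleus ERRalpha/ERRgamma dmKO, but its change was -0.19 ± 0.12 (SE, adjusted p = 0.476) in EDL ERRalpha mKO and 0.33 ± 0.12 (SE, adjusted p = 0.222) in soleus ERRalpha mKO. Esrrg, the gene of ERRgamma, was higher in soleus libraries labelled as its double knockouts, by 1.09 ± 0.15 in ERRbeta/ERRgamma dmKO and 1.21 ± 0.15 in ERRalpha/ERRgamma dmKO. In EDL its log2 change was 0.48 ± 0.15 (SE, adjusted p = 0.257) in ERRbeta/ERRgamma dmKO and 0.51 ± 0.15 (SE, adjusted p = 0.0153) in ERRalpha/ERRgamma dmKO. In ERRalpha mKO, where it is not a labelled target, it was 0.61 ± 0.15 (SE, adjusted p = 0.0195) in EDL and 0.36 ± 0.15 (SE, adjusted p = 0.351) in soleus. Esrrb, the gene of ERRbeta, was not called in ERRbeta/ERRgamma dmKO, with log2 changes of -0.18 ± 0.21 (SE, adjusted p = 0.944) in EDL and 0.28 ± 0.21 (SE, adjusted p = 0.458) in soleus, but fell by 1.60 (adjusted p = 9.56e-07) in EDL ERRalpha/ERRgamma dmKO, where it is not a labelled target. The groups below are therefore the libraries labelled mKO, dmKO and WT, with the column marks read as described under processing.

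In WT muscle, 10 of the 30 tested genes were higher in soleus than in EDL and 5 were lower, when 55.5% of all genes tested differed, 31.4% of all genes higher in soleus and 24.1% lower. Of these differences the largest belonged to Bdh1, the mitochondrial 3-hydroxybutyrate dehydrogenase that opens ketone oxidation. Its log2 level over 9 WT libraries was lowest 5.69, median 5.93, highest 6.07 in soleus, against lowest 0.90, median 2.77, highest 3.72 in EDL. The muscles did not overlap, and the log2 difference was 3.21 ± 0.18 (adjusted p = 4.95e-15). Abat, a mitochondrial transaminase of GABA that also acts in valine breakdown, had log2 levels of lowest -0.16, median 0.39, highest 1.31 in soleus and lowest -1.46, median -0.90, highest -0.31 in EDL. That difference was 1.52 ± 0.23 (adjusted p = 1.36e-06). Acat1, the mitochondrial acetoacetyl-CoA thiolase shared by isoleucine and ketone breakdown, had log2 levels of lowest 6.96, median 7.02, highest 7.29 in soleus and lowest 5.94, median 6.11, highest 6.23 in EDL. Mcee, the epimerase of methylmalonyl-CoA, stood at lowest 5.58, median 5.75, highest 5.93 in soleus and lowest 4.48, median 4.87, highest 5.12 in EDL on the same scale. Both were higher in every WT soleus library than in any WT EDL library, by 0.95 ± 0.05 (adjusted p = 1.04e-15) for Acat1 and 0.91 ± 0.069 (adjusted p = 2.98e-12) for Mcee.

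The other genes higher in WT soleus were Ppm1k, the BCKDH phosphatase, at 0.79 ± 0.15 (adjusted p = 3.31e-05), Hibch at 0.68 ± 0.064 (adjusted p = 2.77e-10), Slc7a5 at 0.64 ± 0.23 (adjusted p = 0.0228), Mmaa at 0.40 ± 0.087 (adjusted p = 0.000314), Bckdha at 0.37 ± 0.066 (adjusted p = 2.24e-05) and Ivd at 0.37 ± 0.082 (adjusted p = 4e-04), all as log2 differences. The call of Slc7a5, a light subunit of the leucine transporter, was lost when a pseudocount of 1 was added to the linear signal. Lower in WT soleus were Mmab at -0.63 ± 0.077 (adjusted p = 4.97e-08), Slc3a2 at -0.61 ± 0.091 (adjusted p = 1.6e-06), Bckdk, the BCKDH kinase, at -0.29 ± 0.053 (adjusted p = 4.34e-05), Pccb at -0.24 ± 0.052 (adjusted p = 0.000257) and Mccc2 at -0.23 ± 0.079 (adjusted p = 0.0151). In WT animals the kinase was thus lower and the phosphatase higher in soleus. For the other 15 genes no difference was called, and the largest of those estimates was 0.17 ± 0.079 for Mmachc. All 8 fibre markers were called as different between the WT muscles as well, 5 of them higher in soleus, and their part in these differences was not tested.

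**Figure D1:**
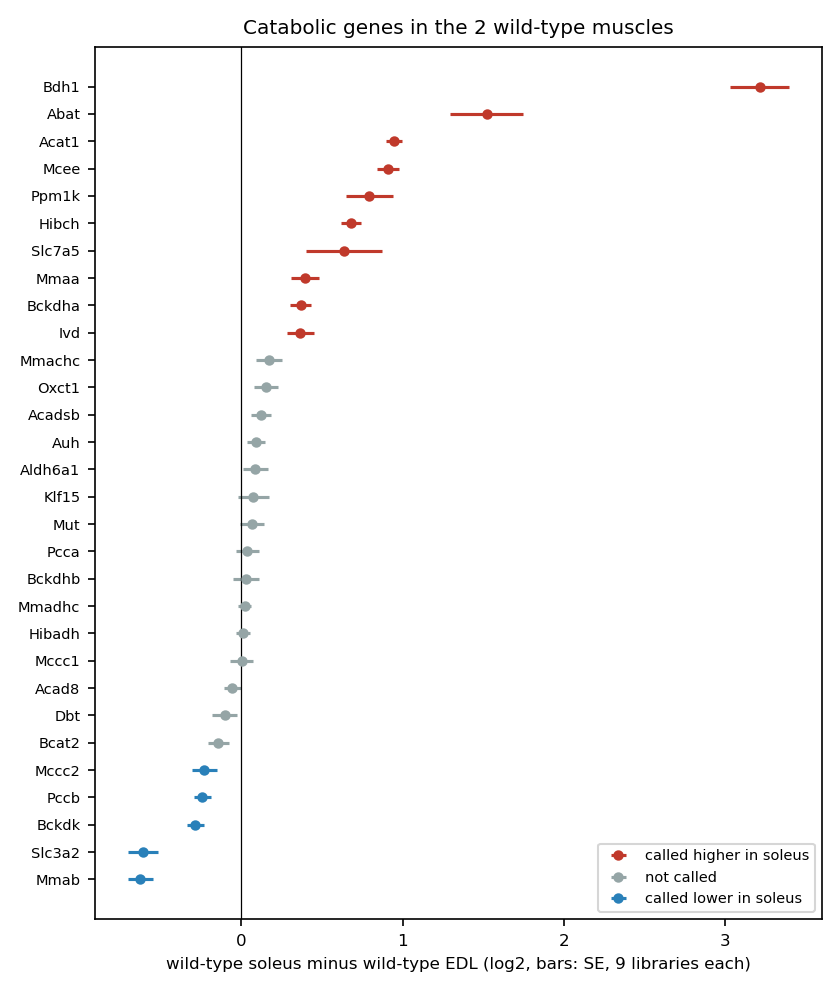
Log2 difference of each of the 30 tested genes between WT soleus and WT EDL (x axis, soleus minus EDL; bars are SE, 9 libraries per muscle), coloured by call. Bdh1 stands apart at 3.21, while Hibadh, Mccc1 and Mmadhc lie close to 0.

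Across the knockout comparisons every called change in the set was a decrease in the fit of all 36 libraries. In EDL ERRalpha/ERRgamma dmKO muscle 23 of 30 genes fell, when 7.02% of all genes tested fell and 18.3% changed in either direction. In soleus ERRalpha/ERRgamma dmKO 18 fell, when 5.91% of all genes fell and 12.8% changed, and in soleus ERRbeta/ERRgamma dmKO 18 fell, when 3.58% fell and 6.78% changed. The median log2 change of the 30 genes was -0.70 in EDL ERRalpha/ERRgamma dmKO, against 0.12 over all genes tested. It was -0.48 in soleus ERRalpha/ERRgamma dmKO, against 0.11 over all genes, and -0.49 in soleus ERRbeta/ERRgamma dmKO, against 0.053 over all genes. No gene was called by limma in EDL ERRalpha mKO (3.39% of all genes called), EDL ERRbeta/ERRgamma dmKO (0.214%) or soleus ERRalpha mKO (0.719%). At an unadjusted p under 0.05 there were 7 of 30 genes in EDL ERRalpha mKO, 6 of them lower, when 15.1% of all genes passed, 6 in EDL ERRbeta/ERRgamma dmKO, all lower, when 7.22% passed, and 1 in soleus ERRalpha mKO, higher, when 10.8% passed. With the animal as a block 1 gene, Hibadh, was called in EDL ERRalpha mKO (3.45% of all genes called). It was also the 1 gene called there with no filter on low values (3.44%), lower in both. Leaving out WT replicate 1 or 3 gave 1 call there that was higher, Bdh1 (2.34% and 2.21% of all genes called). Leaving out WT replicate 2 gave 1 that was lower, Acat1 (2.17%).

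Of the 30 genes, 13 fell in all 3 comparisons that gave calls: Bcat2, Bckdha, Bckdhb, Dbt, Ppm1k, Mccc1, Hibch, Hibadh, Aldh6a1, Pcca, Pccb, Mut and Acat1. A further 8 fell in 2 of them, 4 in 1, and 5 in none. All 18 genes that fell in soleus ERRalpha/ERRgamma dmKO were among the 23 that fell in EDL of the same class, which is 78.3% of the EDL list. Of the 18 that fell in soleus ERRbeta/ERRgamma dmKO, 16 were on the EDL ERRalpha/ERRgamma dmKO list (88.9%, and 69.6% of that list). The soleus lists of the 2 double knockouts shared 13 genes, 72.2% of each. Across the 30 genes, as a description, the changes correlated at 0.66 between the muscles in ERRalpha/ERRgamma dmKO and at 0.54 between the double knockouts in soleus, and at 0.24 between soleus ERRbeta/ERRgamma dmKO and EDL ERRalpha/ERRgamma dmKO, where genes share libraries and are not independent points.

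**Figure D2:**
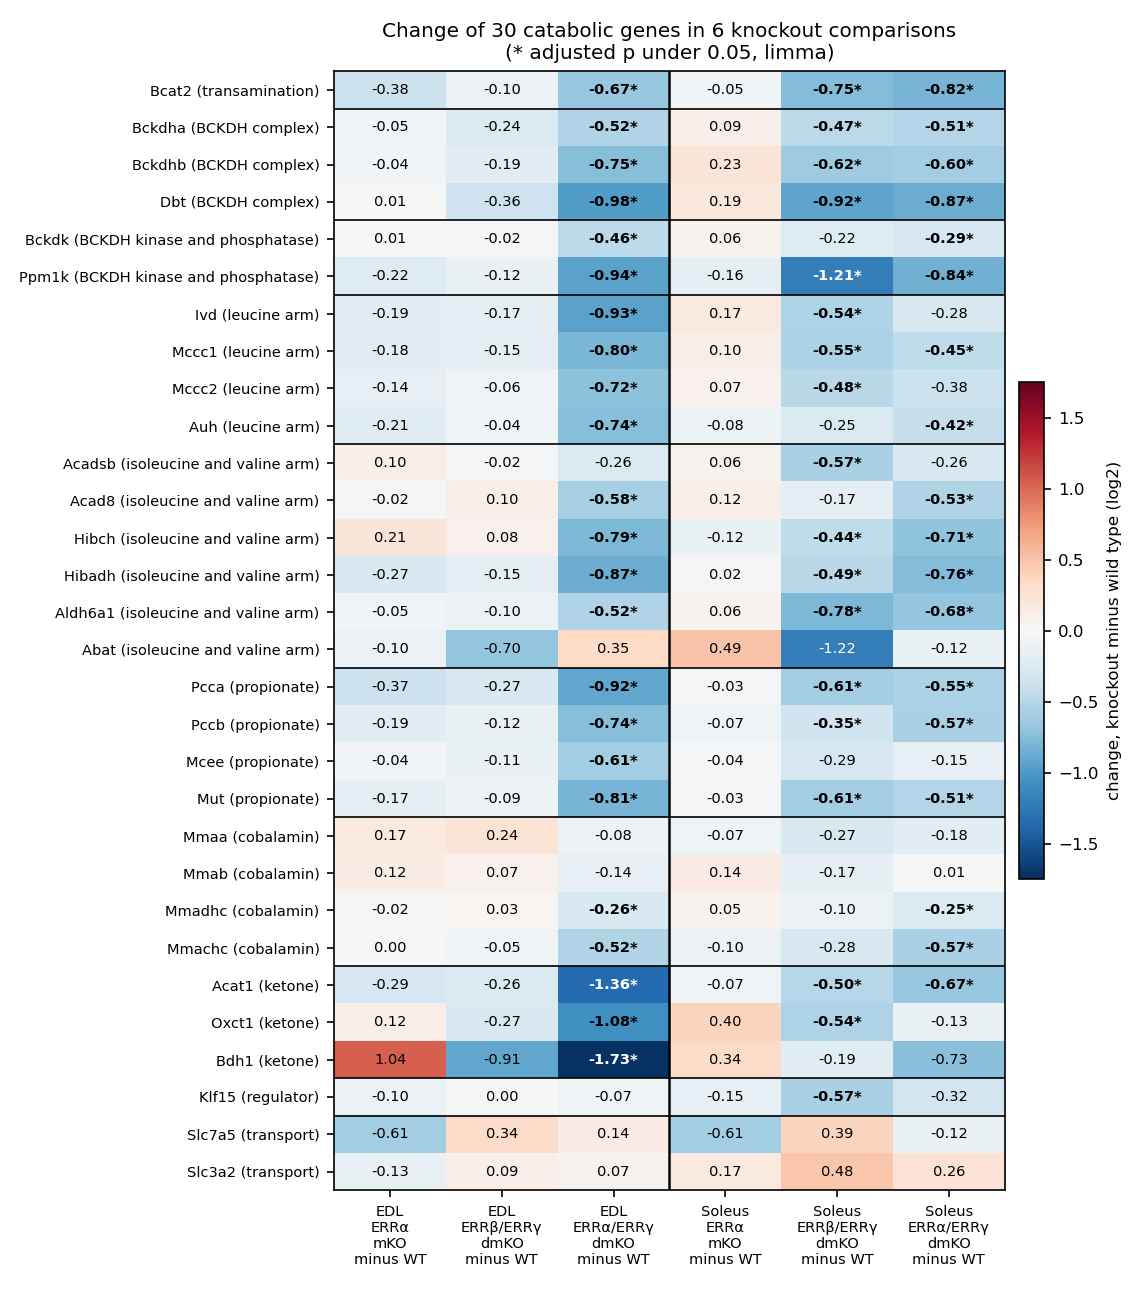
Log2 change of each tested gene, knockout minus WT, in the 6 comparisons (columns, EDL left of the vertical line and soleus right), with genes in rows grouped by role and an asterisk where the adjusted p in limma was under 0.05. The called decreases fill the EDL ERRalpha/ERRgamma dmKO column with 23 genes and the soleus double knockout columns with 18 each, and the other 3 columns hold none.

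Limits of these counts differ by comparison. In soleus ERRbeta/ERRgamma dmKO the calls rest on the spread shared by all 12 groups: a fit of its 6 libraries alone called 0 of the 30 genes by limma and 0.0302% of all genes, with 19 of the 30 at an unadjusted p under 0.05, when 11% of all genes were. In that group library 1 stood apart, with a summed linear signal of 278 over 6 leukocyte markers, against 26.7 and 99.1 in the other dmKO libraries and 22.6 to 82.4 in WT. Without it 9 of the 30 genes were called, when 3.09% of all genes were. The median log2 change of the 30 genes was then -0.33, against 0.036 over all genes. The genes still called were Bcat2, Dbt, Ppm1k, Hibadh, Aldh6a1, Acadsb, Pcca, Mut and Acat1.

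Markers of other cell types were read in the same comparisons. Among endothelial markers 2 of 6, Kdr and Flt1, fell in EDL ERRalpha/ERRgamma dmKO, where the summed signal of 6 fibroblast markers was 275 to 374 in dmKO libraries and 208 to 278 in WT libraries. That of 4 satellite cell markers was 3.14 to 4.66 in these dmKO libraries and 2.04 to 2.93 in WT. In soleus ERRalpha/ERRgamma dmKO, the summed signal of 6 fibroblast markers was 438 to 518 in dmKO libraries and 219 to 437 in WT. That of 6 leukocyte markers was 78.2 to 104 in dmKO and 48.5 to 70.9 in WT. For 8 fibre markers it was 26731 to 26897 in dmKO and 29196 to 30043 in WT. For 6 endothelial markers it was 69.9 to 81.7 in dmKO and 85.5 to 91.9 in WT, and for 4 satellite cell markers 3.32 to 4.80 and 2.77 to 2.94. No fibroblast, leukocyte or fat marker was called there, and the part of these shifts in the results was not tested. Slow-fibre genes also shifted in EDL ERRalpha/ERRgamma dmKO, mainly in libraries 1 and 3. The log2 level of Myh7, the slow myosin heavy chain, was 3.71, -1.03 and 2.84 in the dmKO libraries, against -1.73, -1.96 and -1.42 in their WT libraries. In dmKO library 2 the slow troponin genes Tnnt1, Tnni1 and Tnnc1 stood at 1.62, 0.91 and 1.70. Their levels in WT libraries were 1.44 to 2.11, 0.32 to 1.59 and 1.02 to 1.60. The mean log2 level of the 30 genes was 3.11 in dmKO library 2, against 3.21 and 3.14 in dmKO libraries 1 and 3. Of the 8 fibre markers, 4 were called in EDL ERRalpha/ERRgamma dmKO, with Myh7, Tnnt1 and Des higher and Mb lower, 3 in soleus ERRalpha/ERRgamma dmKO, with Des higher and Mb and Tnnt3 lower, and 1 in soleus ERRbeta/ERRgamma dmKO, Des, higher. Myh2, the fast oxidative myosin heavy chain, which is not among those 8 markers, had log2 levels of 9.06 to 9.14 in soleus ERRalpha/ERRgamma dmKO libraries, against 9.98 to 10.06 in WT, and 9.43 to 9.86 in soleus ERRbeta/ERRgamma dmKO libraries, against 10.05 to 10.49 in WT, with no overlap in either. In EDL ERRbeta/ERRgamma dmKO, where no gene of the set was called, Myh2 levels were 4.99 to 6.15, against 7.06 to 7.80 in WT. In EDL ERRalpha/ERRgamma dmKO they were 6.94 to 7.69, against 6.63 to 7.67 in WT, and overlapped. Myh2 levels also overlapped with WT in both muscles of ERRalpha mKO. The part of these fibre genes in the results was not tested.

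Summed signal of 5 red blood cell markers set a few libraries apart. In ERRalpha/ERRgamma soleus it was 685 to 907 in dmKO libraries, against 3927 in WT library 2 and 675 and 763 in the other WT libraries. In EDL of that class it was 2414 in dmKO library 3 and 449 and 459 in the other dmKO libraries, against 4331 in WT library 2 and 348 and 558 in the other WT libraries. None of these 5 markers was called in the 6 knockout comparisons. WT library 2 of soleus and WT library 2 of EDL in this class carry the same animal number. Without WT library 2 of the muscle tested, 14 genes of the set were called in soleus ERRalpha/ERRgamma dmKO, when 9.74% of all genes were. In EDL ERRalpha/ERRgamma dmKO 22 were then called, when 15% of all genes were.

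Bcat2, the mitochondrial branched-chain aminotransferase, had log2 levels of 3.26, 3.44 and 3.08 in EDL ERRalpha/ERRgamma dmKO libraries, against 3.87, 3.90 and 3.996 in their WT libraries. Every dmKO library lay below every WT one, and the log2 change of -0.67 ± 0.11 (SE, adjusted p = 4.43e-05) corresponds to a signal that fell by 37%. In soleus the log2 levels were 3.04, 3.26 and 3.19 in ERRbeta/ERRgamma dmKO, against 4.01, 3.79 and 3.96 in WT, and 2.95, 3.02 and 3.08 in ERRalpha/ERRgamma dmKO, against 3.67, 4.07 and 3.77 in WT. In both soleus classes the knockout libraries again lay below all of their WT libraries, with log2 changes of -0.75 ± 0.11 (SE, adjusted p = 0.000102) in ERRbeta/ERRgamma dmKO and -0.82 ± 0.11 (SE, adjusted p = 4.29e-06) in ERRalpha/ERRgamma dmKO. In ERRalpha mKO the estimate was -0.38 ± 0.11 (SE, adjusted p = 0.0536) in EDL, where the 3 mKO libraries were all below the WT libraries, and -0.052 ± 0.11 (SE, adjusted p = 0.916) in soleus.

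Bcat1, the cytosolic isoenzyme, was near the floor of the table. It had a value in 23 of 36 libraries, with log2 levels between -6.63 and -0.98. The highest of these was in soleus ERRbeta/ERRgamma dmKO library 1, the library with the highest leukocyte marker sum, and no test was made of Bcat1.

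The 3 BCKDH subunits fell together. Dbt encodes the acyltransferase core of the complex, and Bckdha and Bckdhb the subunits of its decarboxylase. Dbt had log2 levels of 2.58, 2.06 and 2.02 in EDL ERRalpha/ERRgamma dmKO libraries, against 3.20, 3.23 and 3.17 in their WT libraries, a log2 change of -0.98 ± 0.13 (SE, adjusted p = 1.77e-06). In soleus ERRbeta/ERRgamma dmKO it stood at 2.85, 2.95 and 2.71, against 3.69, 3.69 and 3.91 in WT, and in soleus ERRalpha/ERRgamma dmKO at 2.19, 2.30 and 2.23, against 2.89, 3.55 and 2.88 in WT. Neither soleus pair overlapped, although WT library 2 of the ERRalpha/ERRgamma class, the one with the high red blood cell sum, was well above its other WT libraries. The log2 changes of Dbt were -0.92 ± 0.13 (SE, adjusted p = 8.11e-05) in ERRbeta/ERRgamma dmKO and -0.87 ± 0.13 (SE, adjusted p = 2.21e-05) in ERRalpha/ERRgamma dmKO, and its signal fell by 47.2% in ERRbeta/ERRgamma dmKO and by 45.3% in ERRalpha/ERRgamma dmKO.

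The decarboxylase subunits had smaller estimates. Bckdhb averaged 3.18 ± 0.16 in EDL ERRalpha/ERRgamma dmKO and 3.92 ± 0.12 in WT as log2 levels (SD, n = 3 each), a log2 change of -0.75 ± 0.14 (SE, adjusted p = 0.000191). In soleus its log2 changes were -0.62 ± 0.14 (SE, adjusted p = 0.00559) in ERRbeta/ERRgamma dmKO and -0.60 ± 0.14 (SE, adjusted p = 0.00315) in ERRalpha/ERRgamma dmKO. For Bckdha the log2 changes were -0.52 ± 0.11 (SE, adjusted p = 0.00121) in EDL ERRalpha/ERRgamma dmKO, -0.47 ± 0.11 (SE, adjusted p = 0.00943) in soleus ERRbeta/ERRgamma dmKO and -0.51 ± 0.11 (SE, adjusted p = 0.00228) in soleus ERRalpha/ERRgamma dmKO. The ERRbeta/ERRgamma soleus calls of both subunits were lost without dmKO replicate 1. In ERRalpha mKO the 3 subunits had log2 changes of -0.050 to 0.0065 in EDL and 0.095 to 0.23 in soleus.

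Of the 2 regulators of the complex, the phosphatase fell in all 3 comparisons and the kinase in 2. Ppm1k, the phosphatase, had the lowest estimate of any called gene in soleus ERRbeta/ERRgamma dmKO, with log2 levels of 1.70, 2.28 and 1.82 in dmKO libraries, against 3.29, 3.09 and 3.06 in WT libraries. All dmKO libraries were below all WT ones, and the log2 change was -1.21 ± 0.25 (SE, adjusted p = 0.00303), a signal that fell by 56.8%. The soleus ERRalpha/ERRgamma dmKO log2 levels were 1.07, 1.38 and 1.28 in dmKO libraries, against 1.55, 2.87 and 1.85 in WT libraries, a log2 change of -0.84 ± 0.25 (SE, adjusted p = 0.0238). Here WT library 2 was high, and the call was lost without it, without dmKO replicate 1 or 3, and in a fit of its 6 libraries. Its log2 change in EDL ERRalpha/ERRgamma dmKO was -0.94 ± 0.25 (SE, adjusted p = 0.00816), a call lost without WT replicate 3 or dmKO replicate 2.

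Bckdk, the kinase, had log2 changes of -0.46 ± 0.093 (SE, adjusted p = 0.000477) in EDL ERRalpha/ERRgamma dmKO, -0.29 ± 0.093 (SE, adjusted p = 0.037) in soleus ERRalpha/ERRgamma dmKO and -0.22 ± 0.093 (SE, adjusted p = 0.152) in soleus ERRbeta/ERRgamma dmKO. The soleus ERRalpha/ERRgamma call of Bckdk was lost without an intensity trend, in a fit of its 6 libraries, and when either of 2 WT or 2 dmKO libraries was left out. Gene length drops out of a gap between 2 genes when the gap is compared between groups. The log2 gap of Ppm1k minus Bckdk was -3.01 ± 0.13 in soleus ERRbeta/ERRgamma dmKO and -2.03 ± 0.10 in its WT (SD, n = 3 each), and library values did not overlap. The gap in EDL ERRalpha/ERRgamma dmKO was -4.46 ± 0.50 in dmKO libraries and -3.98 ± 0.24 in WT libraries, which overlapped. The gap in soleus ERRalpha/ERRgamma dmKO was -3.78 ± 0.12 in dmKO libraries and -3.22 ± 0.64 in WT libraries, which did not overlap. These gaps were chosen after the values were seen and are given without a test.

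Promoters of the set were read to show what letters of the receptors' response element they hold. RefSeq windows of 250 bases before to 50 after the start site (GRCm38.p6) existed for 25 members, in 32 windows, and Dbt, Abat, Mut, Mmadhc, Acat1 and Slc7a5 are named only. The extended element TNAAGGTCA was in 0 of the 32 windows and in 1.28% of 32851 windows of all genes, and its shorter form AAGGTCA was in 0 of 32 and in 4.72% of all, on either strand. The bare nuclear receptor half-site AGGTCA, which is contained in both and was searched after those gave no match, was in 7 of 32 windows (21.9%), against 16.3% of all windows. The 6 members with it were Aldh6a1, Bcat1, Bckdhb, Hibadh, Pcca and Ppm1k. The following stretches of 120 bases are shown for 4 members that fell in all 3 comparisons, 5′ to 3′ on the gene's strand, with the half-site in capitals (TGACCT where it lies on the other strand). Hibadh also fell in all 3, but its half-site does not begin in the 250 bases before the start site, so it is not shown. The first base of the half-site lies 124 bases before the start site in Ppm1k, 119 in Bckdhb, 94 in Aldh6a1 and 197 in Pcca.
Ppm1k, chr6:57535549-57535668, minus strand: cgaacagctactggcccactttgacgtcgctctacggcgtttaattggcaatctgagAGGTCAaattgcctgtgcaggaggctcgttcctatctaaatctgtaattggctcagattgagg
Bckdhb, chr9:83924961-83925080, plus strand: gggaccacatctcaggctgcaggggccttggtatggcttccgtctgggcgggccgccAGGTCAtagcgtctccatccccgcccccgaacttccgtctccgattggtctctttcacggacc
Aldh6a1, chr12:84448349-84448468, minus strand: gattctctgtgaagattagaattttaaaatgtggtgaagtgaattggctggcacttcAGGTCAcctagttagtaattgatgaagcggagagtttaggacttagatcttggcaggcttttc
Pcca, chr14:122484115-122484234, plus strand: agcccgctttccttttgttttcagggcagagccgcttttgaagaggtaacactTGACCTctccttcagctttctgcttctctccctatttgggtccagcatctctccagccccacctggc
A match describes the letters of the window and not a bound site, and no match says only that these letters were not in these windows.

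In the leucine arm all 4 genes fell in EDL ERRalpha/ERRgamma dmKO, 3 in soleus ERRbeta/ERRgamma dmKO and 2 in soleus ERRalpha/ERRgamma dmKO. Mccc1, the biotin-carrying subunit of methylcrotonyl-CoA carboxylase, had log2 levels of 2.75, 2.71 and 2.65 in EDL ERRalpha/ERRgamma dmKO libraries, against 3.46, 3.59 and 3.46 in their WT libraries. The groups did not overlap, with a log2 change of -0.80 ± 0.12 (SE, adjusted p = 1.14e-05). In soleus it stood at 3.07, 3.58 and 3.29 in ERRbeta/ERRgamma dmKO, against 3.95, 3.82 and 3.84 in WT, and at 2.81, 3.06 and 3.16 in ERRalpha/ERRgamma dmKO, against 3.26, 3.66 and 3.45 in WT. The log2 changes were -0.55 ± 0.12 (SE, adjusted p = 0.00494) in ERRbeta/ERRgamma dmKO and -0.45 ± 0.12 (SE, adjusted p = 0.0128) in ERRalpha/ERRgamma dmKO, where both calls were lost without dmKO replicate 1 and in a fit of each comparison's 6 libraries, and the second also without WT replicate 2.

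Ivd, isovaleryl-CoA dehydrogenase, which acts before the carboxylase, fell in EDL ERRalpha/ERRgamma dmKO by 0.93 ± 0.14 (SE, adjusted p = 1.19e-05) on the log2 scale. Its log2 change was -0.54 ± 0.14 (SE, adjusted p = 0.0175) in soleus ERRbeta/ERRgamma dmKO and -0.28 ± 0.14 (SE, adjusted p = 0.222) in soleus ERRalpha/ERRgamma dmKO. Mccc2, the carboxyltransferase subunit, followed the same order, with log2 changes of -0.72 ± 0.14 (SE, adjusted p = 0.000225) in EDL ERRalpha/ERRgamma dmKO, -0.48 ± 0.14 (SE, adjusted p = 0.0287) in soleus ERRbeta/ERRgamma dmKO and -0.38 ± 0.14 (SE, adjusted p = 0.0689) in soleus ERRalpha/ERRgamma dmKO. The soleus ERRbeta/ERRgamma dmKO calls of Ivd and Mccc2 were lost without dmKO replicate 1 or WT replicate 1 or 3. Auh, the hydratase of 3-methylglutaconyl-CoA, was called in EDL ERRalpha/ERRgamma dmKO at -0.74 ± 0.097 (SE, adjusted p = 9.88e-07) and in soleus ERRalpha/ERRgamma dmKO at -0.42 ± 0.097 (SE, adjusted p = 0.00341), the second call being lost in a fit of its 6 libraries, while in soleus ERRbeta/ERRgamma dmKO its log2 change was -0.25 ± 0.097 (SE, adjusted p = 0.126). In EDL ERRalpha mKO the 4 genes had log2 changes of -0.21 to -0.14, and in soleus ERRalpha mKO of -0.082 to 0.17, with no call.

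The isoleucine and valine arm gave 4 falling genes of 6 in each of the 3 comparisons. Hibadh, the dehydrogenase of 3-hydroxyisobutyrate in valine breakdown, had log2 levels of 5.41, 5.40 and 5.34 in EDL ERRalpha/ERRgamma dmKO libraries, against 6.07, 6.38 and 6.32 in their WT libraries. The log2 change was -0.87 ± 0.078 (SE, adjusted p = 6.24e-10), and the signal fell by 45.4%. In soleus ERRbeta/ERRgamma dmKO its log2 levels were 5.96, 6.13 and 6.03 in dmKO libraries, against 6.53, 6.54 and 6.52 in WT libraries, and in soleus ERRalpha/ERRgamma dmKO 5.42, 5.56 and 5.52, against 6.15, 6.30 and 6.32 in WT libraries. No pair of groups overlapped, and the log2 changes were -0.49 ± 0.078 (SE, adjusted p = 0.000223) in ERRbeta/ERRgamma dmKO and -0.76 ± 0.078 (SE, adjusted p = 4.46e-08) in ERRalpha/ERRgamma dmKO. Its log2 change in EDL ERRalpha mKO was -0.27 ± 0.078 (SE, adjusted p = 0.0528), with all 3 mKO libraries below the WT libraries.

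Hibch, which hydrolyses 3-hydroxyisobutyryl-CoA one step earlier, had log2 levels of 3.99, 3.92 and 3.77 in EDL ERRalpha/ERRgamma dmKO libraries, against 4.54, 4.84 and 4.66 in their WT libraries. In soleus they were 4.65, 4.96 and 5.03 in ERRbeta/ERRgamma dmKO, against 5.24, 5.43 and 5.30 in WT, and 4.29, 4.46 and 4.52 in ERRalpha/ERRgamma dmKO, against 5.28, 5.22 and 4.89 in WT. The log2 changes were -0.79 ± 0.11 (SE, adjusted p = 3.06e-06) in EDL ERRalpha/ERRgamma dmKO, -0.44 ± 0.11 (SE, adjusted p = 0.0127) in soleus ERRbeta/ERRgamma dmKO and -0.71 ± 0.11 (SE, adjusted p = 3.08e-05) in soleus ERRalpha/ERRgamma dmKO. The soleus ERRbeta/ERRgamma dmKO call was lost without dmKO replicate 1 or WT replicate 2. In EDL ERRalpha mKO, by contrast, its estimate was positive, at 0.21 ± 0.11 (SE, adjusted p = 0.388). Aldh6a1, the methylmalonate semialdehyde dehydrogenase that ends the valine arm in propionyl-CoA, changed by -0.52 ± 0.13 (SE, adjusted p = 0.0048) in EDL ERRalpha/ERRgamma dmKO, -0.78 ± 0.13 (SE, adjusted p = 0.000397) in soleus ERRbeta/ERRgamma dmKO and -0.68 ± 0.13 (SE, adjusted p = 0.000537) in soleus ERRalpha/ERRgamma dmKO on the log2 scale.

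The acyl-CoA dehydrogenases of the valine and isoleucine arms differed in where they were called. Acad8, the isobutyryl-CoA dehydrogenase of valine, fell in both muscles of ERRalpha/ERRgamma dmKO, with log2 changes of -0.58 ± 0.091 (SE, adjusted p = 1.8e-05) in EDL and -0.53 ± 0.091 (SE, adjusted p = 0.000125) in soleus, against -0.17 ± 0.091 (SE, adjusted p = 0.271) in soleus ERRbeta/ERRgamma dmKO. Acadsb, which acts on the isoleucine product, was called in soleus ERRbeta/ERRgamma dmKO at -0.57 ± 0.11 (SE, adjusted p = 0.00137) and had -0.26 ± 0.11 (SE, adjusted p = 0.106) in EDL ERRalpha/ERRgamma dmKO and -0.26 ± 0.11 (SE, adjusted p = 0.125) in soleus ERRalpha/ERRgamma dmKO. Neither difference between the double knockouts in soleus was called.

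Abat was not called in any knockout comparison. Its log2 levels were -1.12, 0.079 and 0.41 in soleus ERRbeta/ERRgamma dmKO libraries, against 1.17, 1.31 and 0.54 in their WT libraries, with no overlap, a wide spread and a log2 change of -1.22 ± 0.39 (SE, adjusted p = 0.0572). Library 1 was the lowest. The adjusted p passed the threshold after recentring, with a pseudocount of 1 or with the animal as a block. In EDL ERRalpha/ERRgamma dmKO the levels were -0.28, -1.04 and -0.26, against -1.46, -0.88 and -0.31 in WT, and the groups overlapped.

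All 4 genes of propionate breakdown fell in EDL ERRalpha/ERRgamma dmKO, and 3 of 4 in each of the other double knockout comparisons in soleus. Pcca, the biotin-carrying subunit of propionyl-CoA carboxylase, had log2 levels of 0.87, 0.72 and 0.85 in EDL ERRalpha/ERRgamma dmKO libraries, against 1.69, 1.74 and 1.76 in their WT libraries. Its log2 change was -0.92 ± 0.12 (SE, adjusted p = 1.08e-06), and its signal fell by 47%. In soleus the log2 levels were 0.89, 1.60 and 1.47 in ERRbeta/ERRgamma dmKO, against 1.96, 1.83 and 2.01 in WT, and 0.98, 1.11 and 1.15 in ERRalpha/ERRgamma dmKO, against 1.57, 1.79 and 1.52 in WT. The log2 changes were -0.61 ± 0.12 (SE, adjusted p = 0.00181) in ERRbeta/ERRgamma dmKO and -0.55 ± 0.12 (SE, adjusted p = 0.00202) in ERRalpha/ERRgamma dmKO. In EDL ERRalpha mKO the estimate was -0.37 ± 0.12 (SE, adjusted p = 0.0943), with all mKO libraries below WT.

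Pccb, its carboxyltransferase partner, had log2 levels of 4.44, 4.20 and 4.27 in EDL ERRalpha/ERRgamma dmKO libraries, against 5.08, 5.06 and 4.998 in their WT libraries. Soleus levels were 4.31, 4.69 and 4.48 in ERRbeta/ERRgamma dmKO, against 4.85, 4.81 and 4.88 in WT, and 4.17, 4.28 and 4.38 in ERRalpha/ERRgamma dmKO, against 4.75, 4.97 and 4.83 in WT. The log2 changes were -0.74 ± 0.091 (SE, adjusted p = 2.95e-07) in EDL ERRalpha/ERRgamma dmKO, -0.35 ± 0.091 (SE, adjusted p = 0.0156) in soleus ERRbeta/ERRgamma dmKO and -0.57 ± 0.091 (SE, adjusted p = 3.87e-05) in soleus ERRalpha/ERRgamma dmKO. The soleus ERRbeta/ERRgamma dmKO call of Pccb was lost without dmKO replicate 1 or WT replicate 3. Mut, the cobalamin-dependent mutase that makes succinyl-CoA, had log2 changes of -0.81 ± 0.13 (SE, adjusted p = 1.58e-05) in EDL ERRalpha/ERRgamma dmKO, -0.61 ± 0.13 (SE, adjusted p = 0.00303) in soleus ERRbeta/ERRgamma dmKO and -0.51 ± 0.13 (SE, adjusted p = 0.00573) in soleus ERRalpha/ERRgamma dmKO. Its call in soleus ERRalpha/ERRgamma dmKO was lost without WT replicate 2. Mcee, the epimerase between carboxylase and mutase, was called in EDL ERRalpha/ERRgamma dmKO at -0.61 ± 0.12 (SE, adjusted p = 0.000317) and had -0.29 ± 0.12 (SE, adjusted p = 0.14) in soleus ERRbeta/ERRgamma dmKO and -0.15 ± 0.12 (SE, adjusted p = 0.475) in soleus ERRalpha/ERRgamma dmKO. The Mcee log2 levels were 4.38, 4.32 and 4.32 in EDL ERRalpha/ERRgamma dmKO, against 4.88, 4.86 and 5.12 in WT, with no overlap.

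Of the 4 genes that prepare the cobalamin cofactor, 2 fell in ERRalpha/ERRgamma dmKO of both muscles. Mmachc, which processes incoming cobalamin, fell in ERRalpha/ERRgamma dmKO, with log2 changes of -0.52 ± 0.14 (SE, adjusted p = 0.00674) in EDL and -0.57 ± 0.14 (SE, adjusted p = 0.00453) in soleus. Mmadhc, which routes it onward, fell by less, at -0.26 ± 0.068 (SE, adjusted p = 0.00671) in EDL and -0.25 ± 0.068 (SE, adjusted p = 0.0127) in soleus. The Mmachc call in EDL was lost without WT replicate 2, and the Mmadhc call in soleus without dmKO replicate 1. The mitochondrial partners of the mutase were not called in any knockout comparison. Mmaa, which loads and protects the mutase, had log2 changes of -0.27 to 0.24 over the 6 comparisons, and Mmab, the adenosyltransferase, of -0.17 to 0.14.

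**Figure D3:**
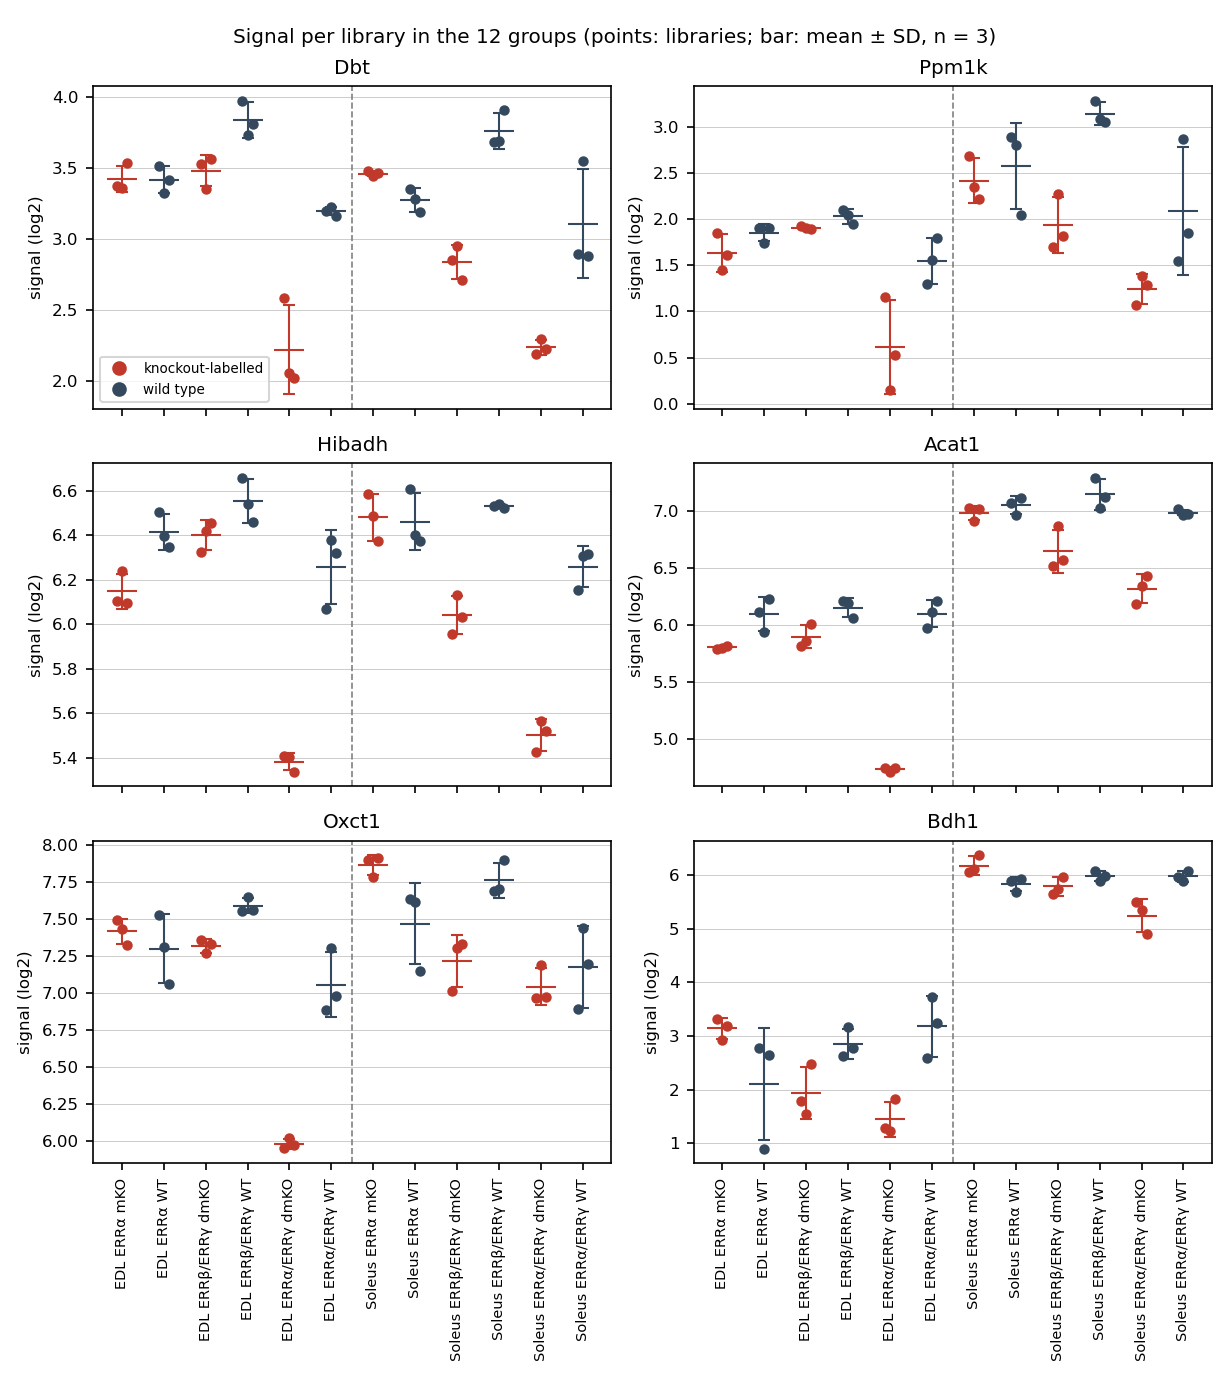
Log2 level of Dbt, Ppm1k, Hibadh, Acat1, Oxct1 and Bdh1 in each library (points, with mean ± SD over n = 3), in the 12 groups, EDL left of the dashed line and each knockout left of its WT group. In EDL ERRalpha/ERRgamma dmKO the 3 points of each of these genes lie below the 3 WT points, with Acat1 at 4.71 to 4.75 in dmKO libraries.

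The ketone enzymes held the 2 largest called changes of the set, in Bdh1 and Acat1 of EDL ERRalpha/ERRgamma dmKO. Acat1 and Oxct1 were the 2 members whose ERRalpha/ERRgamma change was called as different between the muscles. Acat1 (chr9:53580522-53610350 in GRCm38.p6) had log2 levels of 4.74, 4.71 and 4.75 in EDL ERRalpha/ERRgamma dmKO libraries, against 5.97, 6.11 and 6.20 in their WT libraries. The groups were far apart, with a log2 change of -1.36 ± 0.086 (SE, adjusted p = 3.03e-13) and a signal that fell by 61.1%. Soleus log2 levels in ERRalpha/ERRgamma dmKO were 6.18, 6.34 and 6.43, against 7.01, 6.96 and 6.97 in WT, and in soleus ERRbeta/ERRgamma dmKO 6.51, 6.86 and 6.56, against 7.29, 7.02 and 7.12 in WT. The log2 changes were -0.67 ± 0.086 (SE, adjusted p = 2e-06) in ERRalpha/ERRgamma dmKO and -0.50 ± 0.086 (SE, adjusted p = 0.000485) in ERRbeta/ERRgamma dmKO.

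Oxct1, the transferase that activates acetoacetate with succinyl-CoA (chr15:4026428-4155344), had log2 levels of 5.95, 6.02 and 5.97 in EDL ERRalpha/ERRgamma dmKO libraries, against 6.88, 7.30 and 6.98 in their WT libraries. Its log2 change there was -1.08 ± 0.13 (SE, adjusted p = 2.49e-07), a signal that fell by 52.6%. The log2 levels in soleus ERRalpha/ERRgamma dmKO were 6.96, 7.19 and 6.97, against 6.89, 7.44 and 7.19 in WT, where the groups overlapped and the log2 change was -0.13 ± 0.13 (SE, adjusted p = 0.572). In soleus ERRbeta/ERRgamma dmKO it fell, with a log2 change of -0.54 ± 0.13 (SE, adjusted p = 0.00926), a call lost without dmKO replicate 1 or WT replicate 3.

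Bdh1 (chr16:31422297-31458901) had log2 levels of 1.29, 1.23 and 1.83 in EDL ERRalpha/ERRgamma dmKO libraries, against 2.59, 3.72 and 3.24 in their WT libraries. This was the largest estimate of the set in that comparison, at -1.73 ± 0.31 (SE, adjusted p = 0.000136), and the signal fell by 69.9%. In EDL ERRalpha mKO its log2 levels were 3.32, 2.93 and 3.18, against 2.77, 0.90 and 2.65 in WT, where WT library 2 stood low, and the log2 change was 1.04 ± 0.31 (SE, adjusted p = 0.0649). It was called as higher in limma without WT replicate 1 (adjusted p = 0.0206) or WT replicate 3 (adjusted p = 0.0362), and both of these fits keep the low library. Without WT replicate 2, the low library, Bdh1 was not called. In EDL ERRbeta/ERRgamma dmKO its levels were 1.79, 1.55 and 2.49, against 2.62, 3.16 and 2.78 in WT, with no overlap and a log2 change of -0.91 ± 0.31 (SE, adjusted p = 0.381). The same ERRalpha WT library that was low in Bdh1 had a Myh7 level of -2.48, against 1.64 in WT library 1 and 0.62 in WT library 3. In EDL ERRalpha/ERRgamma WT libraries Myh7 stood at -1.73, -1.96 and -1.42, where Bdh1 was 2.59, 3.72 and 3.24. The part of the Myh7 level in the Bdh1 result was not tested. Bdh1 in soleus ERRalpha/ERRgamma dmKO stood at log2 levels of 5.49, 5.34 and 4.90, against 5.96, 5.89 and 6.07 in WT, also with no overlap, and its log2 change of -0.73 ± 0.31 (SE, adjusted p = 0.14) was called only in a fit of its 6 libraries.

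Klf15, a transcription factor known to promote branched-chain amino acid breakdown in muscle, was called in 1 comparison, soleus ERRbeta/ERRgamma dmKO, at -0.57 ± 0.16 (SE, adjusted p = 0.031) on the log2 scale. Its levels there were 2.45, 3.21 and 3.12, against 3.44, 3.51 and 3.55 in WT, with library 1 lowest, and the call was lost without that library and without any 1 of the 3 WT libraries. Its log2 change was -0.32 ± 0.16 (SE, adjusted p = 0.234) in soleus ERRalpha/ERRgamma dmKO and -0.072 ± 0.16 (SE, adjusted p = 0.818) in EDL ERRalpha/ERRgamma dmKO. The transporter subunits Slc7a5 and Slc3a2, which form the heterodimer that exchanges large neutral amino acids, were not called in any knockout comparison. The log2 level of Slc7a5 was 1.28, -0.68 and -0.41 in soleus ERRbeta/ERRgamma dmKO, against -0.16, -0.46 and -0.36 in WT, and that of Slc3a2 was 1.94, 1.03 and 1.48 in dmKO libraries, against 0.76, 1.11 and 1.14 in WT. Library 1, with the high leukocyte sum, was the highest dmKO library for both.

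Differences between the deletion classes were tested as such. Each class change is taken from its own WT group, and for some genes these WT groups stood apart. Mean log2 levels of Dbt in WT EDL were 3.42 in the ERRalpha class, 3.84 in ERRbeta/ERRgamma and 3.20 in ERRalpha/ERRgamma. Those of Acat1 were 6.09, 6.15 and 6.09. The part of WT levels in the class differences was not tested. In EDL the change in ERRalpha/ERRgamma dmKO was lower than that in ERRalpha mKO for 15 of 30 genes (3.61% of all genes tested lower, 4.98% different) and lower than that in ERRbeta/ERRgamma dmKO for 15 (4.19% lower, 7.16% different). For Acat1 the log2 change in ERRalpha/ERRgamma dmKO minus that in ERRalpha mKO was -1.07 ± 0.12 (SE, adjusted p = 2.34e-07), and minus that in ERRbeta/ERRgamma dmKO it was -1.10 ± 0.12 (SE, adjusted p = 9.46e-08). The difference from ERRalpha mKO was -0.996 ± 0.16 (SE, adjusted p = 5.06e-05) for Hibch and -0.60 ± 0.11 (SE, adjusted p = 0.000426) for Hibadh. The difference from ERRbeta/ERRgamma dmKO was -0.87 ± 0.16 (SE, adjusted p = 0.000267) for Hibch and -0.72 ± 0.11 (SE, adjusted p = 2.79e-05) for Hibadh. Without ERRalpha/ERRgamma WT replicate 2 the count against ERRalpha mKO was 8 (3.82% of all genes different). Without dmKO replicate 3 it was 9 (4.52%). These are the 2 EDL libraries of that class with high red blood cell sums. Without EDL ERRalpha WT replicate 2 or mKO replicate 1, whose sums were 302 and 126, it was 10 (3.79% and 4.24%). The other fits with 1 replicate left out gave 11 to 15 (4.1% to 5.06%). The part of red blood cells in these counts was not tested. Bdh1 had the largest difference from ERRalpha mKO, at -2.77 ± 0.45 (SE, adjusted p = 7.01e-05), which includes the low WT library named above.

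In soleus the change in ERRalpha/ERRgamma dmKO was lower than that in ERRalpha mKO for 10 genes (2.98% of all genes lower, 4.88% different): Bcat2, Bckdha, Bckdhb, Dbt, Acad8, Hibch, Hibadh, Aldh6a1, Pccb and Acat1. The differences ran from -1.06 ± 0.19 (SE, adjusted p = 0.000562) for Dbt to -0.50 ± 0.13 (SE, adjusted p = 0.0177) for Pccb. Without soleus ERRalpha/ERRgamma WT replicate 2 the count was 6, when 3.76% of all genes differed. Between the double knockouts of soleus none of the 30 genes differed by limma, when 1.22% of all genes did, and 3 had an unadjusted p under 0.05, when 12% of all genes did. The log2 differences ran from -0.54 ± 0.45 for Bdh1 to 1.097 ± 0.55 for Abat, so the missed threshold does not show that these classes act alike.

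Between the muscles, the change in ERRalpha/ERRgamma dmKO differed for 2 of the 30 genes, both with the smaller decrease in soleus (1.52% of all genes tested higher in soleus, 2.08% different). The soleus minus EDL difference of log2 changes was 0.69 ± 0.12 (SE, adjusted p = 0.000618) for Acat1 and 0.94 ± 0.18 (SE, adjusted p = 0.00225) for Oxct1. In ERRalpha mKO none of the 30 differed by limma (0.0155% of all genes different), with 3 at an unadjusted p under 0.05, when 7.35% of all genes were. In ERRbeta/ERRgamma dmKO none differed either (0.208% of all genes), although 18 genes were called in soleus and none in EDL, and 14 had an unadjusted p under 0.05, when 12% of all genes did, all with the lower change in soleus. The smallest adjusted p there belonged to Bcat2, at -0.65 ± 0.16 (SE, adjusted p = 0.0736), and with the animal as a block Bcat2 was called.

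**Figure D4:**
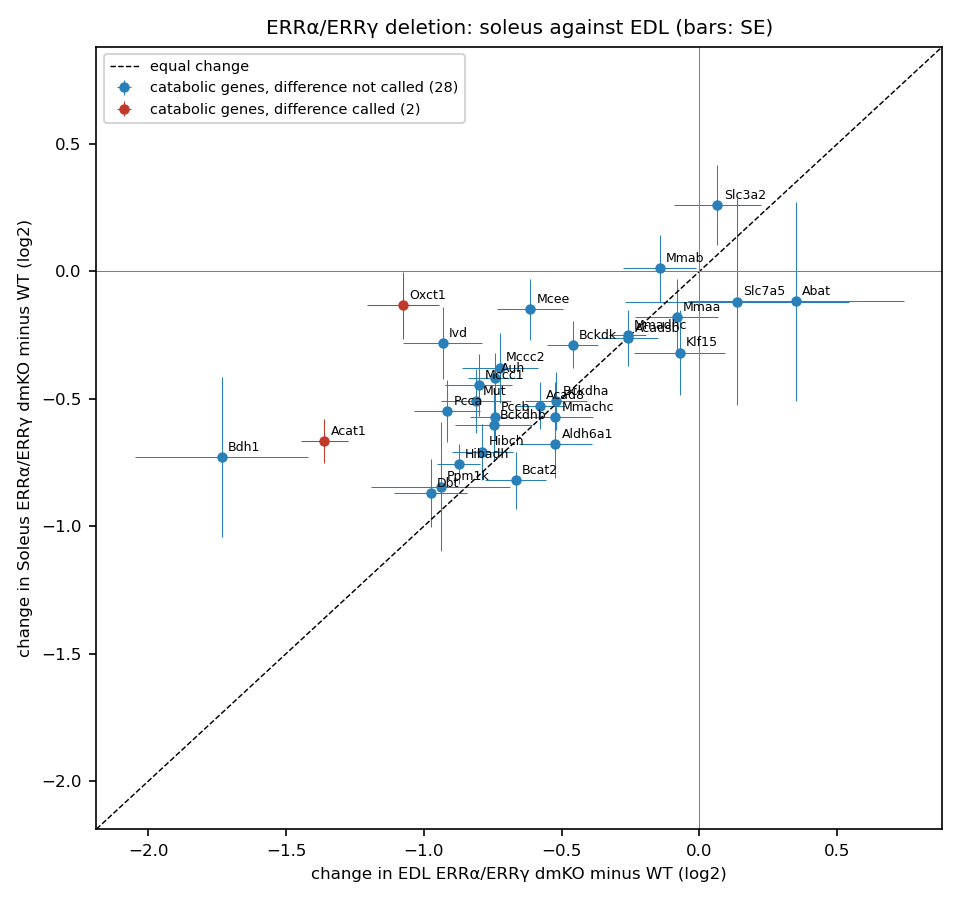
Log2 change in soleus (y axis) against that in EDL (x axis) for the 30 genes in ERRalpha/ERRgamma dmKO (bars are SE), with a dashed line of equal change. Acat1 and Oxct1, in red, are the genes whose change differed between the muscles, and both lie above the line.

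Of 38 further genes of the same routes, 37 were tested. In EDL ERRalpha/ERRgamma dmKO 18 fell and 1 rose, with a median log2 change of -0.41, led by Got2, the mitochondrial aspartate aminotransferase, at -1.94 ± 0.097 (SE, adjusted p = 1.49e-15), Dld, the dehydrogenase subunit that BCKDH shares with other complexes, at -1.32 ± 0.08 (SE, adjusted p = 1.15e-13), and Suclg1, a subunit of succinyl-CoA ligase, at -1.16 ± 0.073 (SE, adjusted p = 2.37e-13). In soleus ERRbeta/ERRgamma dmKO 13 fell, led by the oxidation enzymes Acaa2 at -1.03 ± 0.13 (SE, adjusted p = 1.55e-05), Hadhb at -0.91 ± 0.14 (SE, adjusted p = 0.000184) and Hadh at -0.73 ± 0.12 (SE, adjusted p = 0.00024). In soleus ERRalpha/ERRgamma dmKO 17 fell and 1 rose, led by Suclg1 at -0.96 ± 0.073 (SE, adjusted p = 1.11e-10), Acaa2 at -1.24 ± 0.13 (SE, adjusted p = 3.68e-08) and the hydratase Echs1 at -1.04 ± 0.11 (SE, adjusted p = 6.14e-08). The gene that rose in EDL ERRalpha/ERRgamma dmKO and in soleus ERRalpha/ERRgamma dmKO was Aacs, the cytosolic acetoacetyl-CoA synthetase that feeds ketone bodies into lipid synthesis, by 1.37 ± 0.36 (SE, adjusted p = 0.00722) in EDL and 1.68 ± 0.36 (SE, adjusted p = 0.00158) in soleus. Aacs also rose in EDL ERRalpha mKO, by 1.60 ± 0.36 (SE, adjusted p = 0.0101), where Suclg1 fell, with -0.37 ± 0.073 (SE, adjusted p = 0.00295).

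Set beside lists of fatty acid oxidation and the TCA cycle, the 30 genes had the smallest median decrease in both muscles of ERRalpha/ERRgamma dmKO, with no test between lists. The lists differ in make-up. The 30 also hold Klf15, transporter subunits, cobalamin genes and the BCKDH kinase and phosphatase, while the TCA list holds enzyme subunits. The part of this make-up in the medians was not tested. In EDL ERRalpha/ERRgamma dmKO the median log2 change was -0.70 for the 30 genes, -1.04 for 26 genes of fatty acid oxidation (23 fell) and -1.40 for 22 genes of the TCA cycle and pyruvate dehydrogenase (22 fell). In soleus ERRalpha/ERRgamma dmKO the median was -0.48 for the 30 genes, -0.68 for fatty acid oxidation (22 fell) and -0.69 for the TCA list (22 fell). In soleus ERRbeta/ERRgamma dmKO it was -0.49 for the 30 genes, -0.72 for fatty acid oxidation (22 fell) and -0.17 for the TCA list (5 fell). The test of the difference between the double knockouts in soleus called 13 of the 22 TCA genes lower in ERRalpha/ERRgamma dmKO, 0 of the 26 oxidation genes and 0 of the 30 genes of this set. By that test 1.22% of all genes differed in either direction. Between muscles in ERRalpha/ERRgamma dmKO, a smaller decrease in soleus was called for 19 of the 22 TCA genes, 1 of 26 oxidation genes and 2 of 30 here. Of all genes tested, 1.52% were called higher in soleus in that contrast. These lists share no gene with the 30, although some of the 38 further genes are on them.

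**Figure D5:**
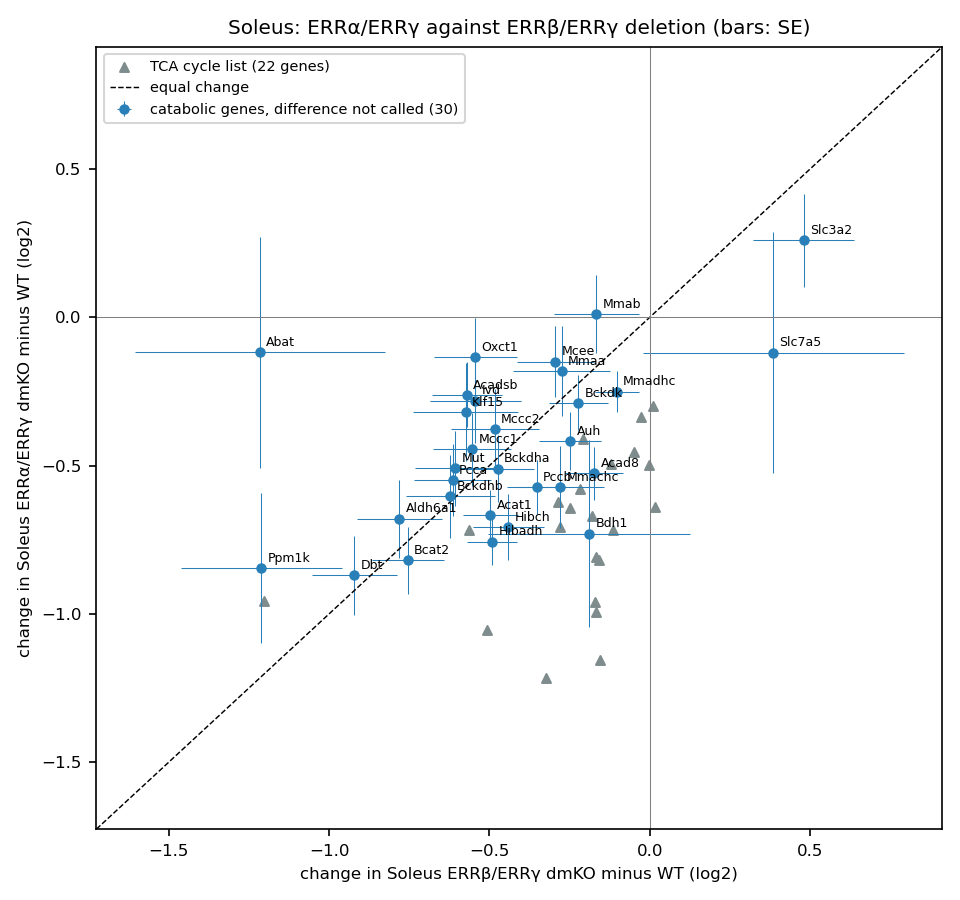
Log2 change in soleus ERRalpha/ERRgamma dmKO (y axis) against that in soleus ERRbeta/ERRgamma dmKO (x axis) for the 30 genes (circles, bars are SE) and the 22 TCA genes (triangles), each class against its own WT group, with a dashed line of equal change. The 30 genes scatter on both sides of the line with no difference called, and most triangles lie below it.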

How the data were processed

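The deposited table holds 1 normalised log2 signal per gene and library for mouse EDL and soleus, made by the authors. Partek 6.6, GRCm38.p6 and mm10 are listed, with no role, per the submitters' processing notes. Which counter and which linear scale stood behind the log2 values is not given in the sources used here. Libraries came from 400 ng of RNA, amplified over 10 PCR cycles, per the labels' protocols. Columns were matched to groups by name alone: "FX-" was taken to mean floxed without Cre and "FXp" floxed and Cre-positive, and the EDL ERRalpha columns were placed through the animal number they share with soleus columns, so replicate numbers here only name libraries.

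Of 45802 rows, 27904 held no value. Missing values stayed missing. Genes were kept when their mean over the libraries, with missing values at the lowest value of -8.21, was above the 25th percentile, and a contrast needed at least 2 values per group. limma 3.58.1 in R 4.3.3 (statmod 1.5.0) was run on all 36 libraries with 12 group means and an intensity trend, tests two-sided, with 14 contrasts, Benjamini-Hochberg adjustment over all genes of each contrast and no pseudocount. It was tested on simulated data first. Within each group the column names carry a different number per library, read here as the animal, and the labels say only "biological replicates". The p-values therefore measure the spread between these libraries.

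Values in every library were given for the 8 genes called in most knockout comparisons, ties by the smallest adjusted p, and the 4 with the largest WT muscle difference. All members were named. Of other lists at most 3 genes per comparison were named, by adjusted p. Library values of Ppm1k, Oxct1, Klf15, Slc7a5 and Slc3a2, and the gene Aacs, were added after their values were seen. The members and lists were chosen with earlier results of these data known. Of the animals, 14 gave both muscles. Deviations of such pairs correlated at -0.068 to 0.32, with a median of 0.097 and 7 of 14 above 0.1, and the animal block, with a consensus correlation of 0.14, served as an alternative. Other alternatives were recentring, no filter, missing values at the lowest value, a pseudocount of 1, only the libraries compared, no trend, and each replicate left out.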

Additional observations from a re-analysis of the deposited data

Results flagged for a closer look

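Among 60 groups of 9 WT libraries of 1 muscle, 3 had a library far from its neighbours, where chance flags about 1 in 20. Bdh1 in WT EDL had its lowest library at 0.90 in the ERRalpha class, with the next at 2.59, a gap of 0.598 of the whole range. Bdh1 in WT soleus had its lowest library at 5.69, also in the ERRalpha class, with the next at 5.88 and a gap of 0.502 of the range. The low Bdh1 columns of both muscles carry the same animal number, so these flags are not independent. Acat1 in WT soleus had its highest library at 7.29 in the ERRbeta/ERRgamma class, with the next at 7.12 and a gap of 0.506 of the range. The effect of ERRalpha/ERRgamma dmKO differed between soleus and EDL, by the test of the difference itself, for Acat1 (soleus minus EDL 0.69 on the log2 scale) and for Oxct1 (0.94).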

How the results depend on the processing

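The 23 and 18 decreases in EDL and soleus ERRalpha/ERRgamma dmKO stayed within 1.5 times under every alternative run, all their calls being decreases. In these runs 14.4% to 19.3% of all genes were called in EDL and 9.35% to 14.3% in soleus. For soleus ERRbeta/ERRgamma dmKO the count was 0 with only its 6 libraries (0.0302% of all genes called). With 1 replicate left out it was 9 to 21 (3.09% to 16.4%), the 21 being 20 lower and 1 higher, Slc3a2, without dmKO replicate 2. The 0 of EDL ERRalpha mKO became 1 lower with no filter on low values (3.44% of all genes called) and 1 lower with the animal as replicate block (3.45%). With 1 replicate left out it was 0 to 1 (1.82% to 2.34%), the 1 being higher without WT replicate 1 or 3 and lower without WT replicate 2. The soleus minus EDL difference of ERRbeta/ERRgamma dmKO gave 1 with the animal block (0.815% of all genes different). With 1 replicate left out it gave 0 to 5 (0.0234% to 4.06%), with 5 without soleus dmKO replicate 2. In EDL, ERRalpha/ERRgamma dmKO against ERRalpha mKO gave 8 to 15 with 1 replicate left out. It gave 8 without ERRalpha/ERRgamma WT replicate 2 (3.82% of all genes different) and 9 without dmKO replicate 3 (4.52%). In soleus that contrast gave 6 to 11 (3.76% to 5.06%), and ERRalpha/ERRgamma against ERRbeta/ERRgamma dmKO gave 0 to 1 (0.926% to 2.48%). The cause was not tested. The pairing by animal changed no other call count past 1.5 times, and knockouts and WT are different animals, so they could not be paired. Without counts, depth limits cannot be set.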
